A study of Mus musculus with 2 samples.

Results

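The 35 genes described here are DNA replication and mitosis genes, taken by name from the 29417 genes of a single-cell expression table of mouse epididymal fat. All 35 were found. They comprise 10 S phase genes, whose products work while DNA is copied, and 22 G2/M genes, whose products work just before and during mitosis. The other 3 genes (H2az1, Stmn1 and Tubb5) were assigned to neither phase. The mice were wild-type C57BL/6J males in 3 feeding groups: standard diet over 16 weeks, high-fat diet over 8 weeks, and high-fat diet over 16 weeks. Their epididymal fat was digested with Liberase, and the stromal vascular fraction, which holds the cells other than fat cells, was kept. Hashtag antibodies (2.5 µg/ml) marked the cells before pooling. Of the pool, 20000 cells went onto a BD Rhapsody device for TAS-Seq amplification. The labels give neither the number of mice nor which hashtag stands for which diet. The 9 hashtag populations (A0301 to A0305 and A0307 to A0310) are therefore given one by one, and no diet is compared with another. All cells belong to 1 pooled sample, so no value below has a replicate and none carries a p-value. Intervals are 95% intervals that cover counting error only and are too narrow, since a transcript can be read more than once.

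A cell that divides passes through a growth phase (G1), copies its DNA (S phase), and after a gap (G2) separates its chromosomes in mitosis (M). E2F transcription factors switch on the replication genes at the start of S phase, and a later wave of transcription, run through CHR and CCAAT elements of the promoters, switches on the mitosis genes. Many tissue macrophages can divide in place, and macrophage division inside fat has been described in obese mice. Fibroblasts of adult fat divide rarely, whereas T cells leave a resting state when they are stimulated.

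The table held 12028 cells and 617812192 reads. After filtering and removal of doublets 10286 cells were kept, with a median of 36709 reads (lowest 5169) and 2763.5 genes. Classes were set by marker genes with all cell cycle genes left out of the clustering, and a class is called "like" its cell type. The largest named ones were fibroblast-like (3144 cells, median 46012 reads), macrophage-like (2981 cells, 75394 reads), endothelial cell-like (1042 cells, 15166 reads), T cell-like (458 cells, 15270.5 reads) and conventional dendritic cell-like (29377 reads). No cluster was named from adipocyte markers, and 3 clusters with 518, 319 and 252 cells stayed unnamed. For 9 members (Pcna, Cdk1, Ube2c, Prc1, Mki67, Top2a, H2az1, Stmn1 and Tubb5) the deposited table holds no value from 1 to 5 reads, so a cell listed at 0 may have had a few reads of these genes.

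Cell cycle genes were found mainly in macrophage-like, conventional dendritic cell-like and T cell-like cells and little in fibroblast-like cells. A cell was counted as holding G2/M genes when at least 3 of the 22 members had a read after every cell had been thinned to 5000 reads. By this measure 371 of 2981 macrophage-like cells held G2/M genes, a share of 12.4% (11.3 to 13.7%), or 18.2% without thinning at 6 reads a gene. The share was 12.6% (9.13 to 16.8%) in conventional dendritic cell-like cells, 8.73% (6.31 to 11.7%) in T cell-like cells and 1.08% (0.75 to 1.51%) in fibroblast-like cells. Macrophage-like cells thus made up 60.0% of the 618 cells with G2/M genes in the whole table. Low values missing from the deposited counts are not restored by thinning. They are missing under 6 reads for the G2/M members Cdk1, Ube2c, Prc1, Mki67 and Top2a, and under 7 for Pcna. Such a gap weighs more in cells with fewer reads. Its part in the shares by class and by hashtag population was not tested.

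Natural killer cell-like cells held G2/M genes in 6.63% (3.35 to 11.5%) of 166 cells, type 2 lymphoid or regulatory T cell-like cells in 3.43% of 233 cells and endothelial cell-like cells in 2.02% (1.25 to 3.06%). Mesothelial cell-like cells were at 2.36%, mural cell-like cells at 1.51% and epithelial cell-like cells at 1.47%. None of 135 B cell-like cells held G2/M genes, which allows a share of up to 2.22% at 3 counts (exact 95% limit 2.70%). None of 66 lymphatic endothelial cell-like or 34 mature dendritic cell-like cells did, which allows up to 4.55% and 8.82% (exact limits 5.44% and 10.3%). Unthinned, the shares were 0.741%, 3.03% and 0% in these 3 classes. The 3 unnamed clusters were at 5.41%, 8.15% and 11.1%, and held 28, 26 and 28 of the 618 cells with G2/M genes.

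**Figure D1:**
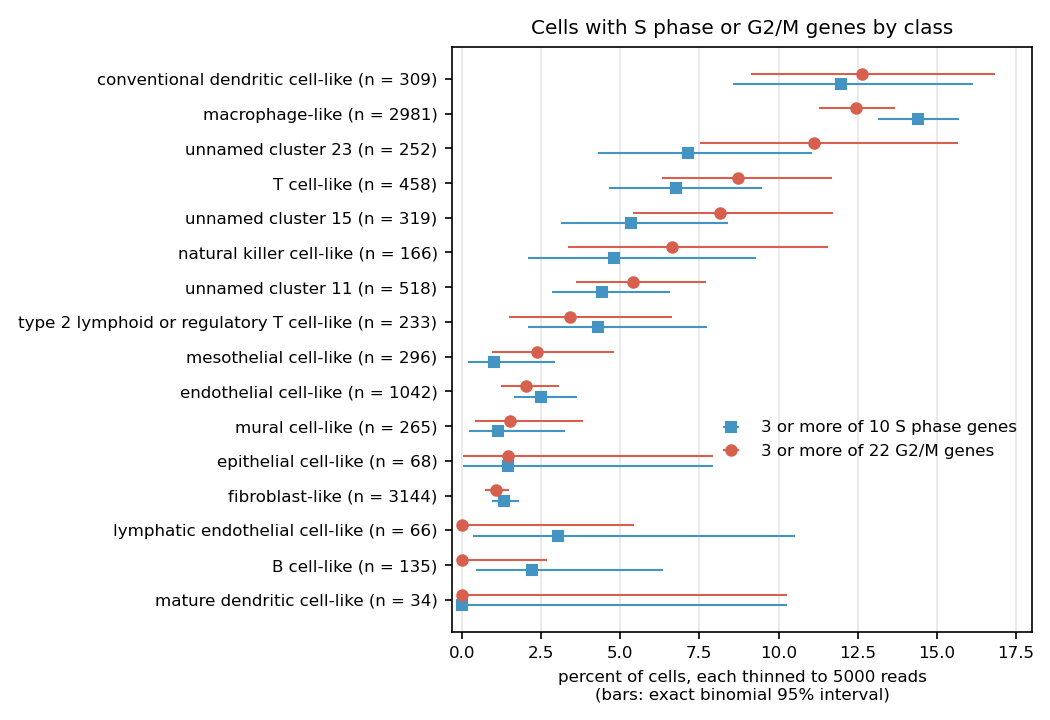
Percent of cells, each thinned to 5000 reads, with at least 3 of 10 S phase genes (blue squares) or at least 3 of 22 G2/M genes (red circles) by class; bars are exact binomial 95% intervals. Conventional dendritic cell-like and macrophage-like cells lie at 12.6% and 12.4% for G2/M genes, and fibroblast-like cells at 1.08%.

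For S phase genes the macrophage-like share was the highest, though it lay within the interval of the conventional dendritic cell-like class. At least 3 of the 10 members were read in 14.4% (13.1 to 15.7%) of macrophage-like and 12.0% (8.57 to 16.1%) of conventional dendritic cell-like cells. The share was 6.77% in T cell-like, 2.50% in endothelial cell-like and 1.34% in fibroblast-like cells. As a mean of log2(CPM+1) over cells, with CPM the reads of a gene per 1000000 reads of the cell, the S phase members stood at 1.88 in macrophage-like, 1.34 in conventional dendritic cell-like, 1.04 in T cell-like, 0.70 in fibroblast-like and 0.64 in endothelial cell-like cells. The G2/M members stood at 1.01, 0.82, 0.68, 0.26 and 0.29 in the same order. In this mean the endothelial cell-like class was next to the fibroblast-like class although its share of cells was higher. Its cells were read less deeply. Depth also fell from macrophage-like (median 75394 reads) over conventional dendritic cell-like (29377) to T cell-like cells (15270.5). As summed CPM per gene the G2/M order turned: 67.0 in T cell-like, 58.2 in conventional dendritic cell-like and 39.6 in macrophage-like cells. Hmgb2, at 708, 456 and 157 CPM in these classes, enters that mean. The S phase members stood at 77.9, 70.9 and 81.0 in the same order. The part of depth in either order was not tested.

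Reads of another class could lie within a class. At least 3 of C1qa, C1qb, C1qc and Adgre1 were read at 6 or more reads in 49 of 458 T cell-like cells (10.7%), and 10 of the 40 T cell-like cells with G2/M genes were among them. Without those cells the T cell-like share was 7.33%. The same macrophage genes were found in 6 conventional dendritic cell-like cells and 24 fibroblast-like cells, and the shares without them were 12.2% and 1.06%. Cells with G2/M genes also had more reads than the others of their class: medians were 112740 against 71600.5 in macrophage-like, 29925 against 14560 in T cell-like and 87508.5 against 45760.5 in fibroblast-like cells. The part of this depth in the shares was not tested beyond the thinning.

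Every one of the 35 members was lowest in fibroblast-like cells among the 5 largest named classes, on the summed reads of each class as CPM with zeros as deposited. A gene was counted as higher or lower past a 2-fold ratio of CPM + 1, when it had at least 20 CPM in 1 of the classes. Against fibroblast-like cells 25 of the 27 members at that level were higher in macrophage-like cells and none was lower, where 17.3% of 7739 genes were higher and 21.8% lower. The median log2 ratio was 2.15 over the 35 members and -0.01 over all genes tested. Against endothelial cell-like cells 11 of 28 members were higher and none lower (background 14.7% higher and 28% lower), with a median log2 ratio of 0.69 over the members and -0.25 over all genes. Against T cell-like cells none was higher and 1 lower (background 11% and 20.7%), with medians of 0.02 and -0.21. Against conventional dendritic cell-like cells 1 was higher and 3 lower (background 13.2% and 13.5%), with medians of -0.18 and -0.09.

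**Figure D2:**
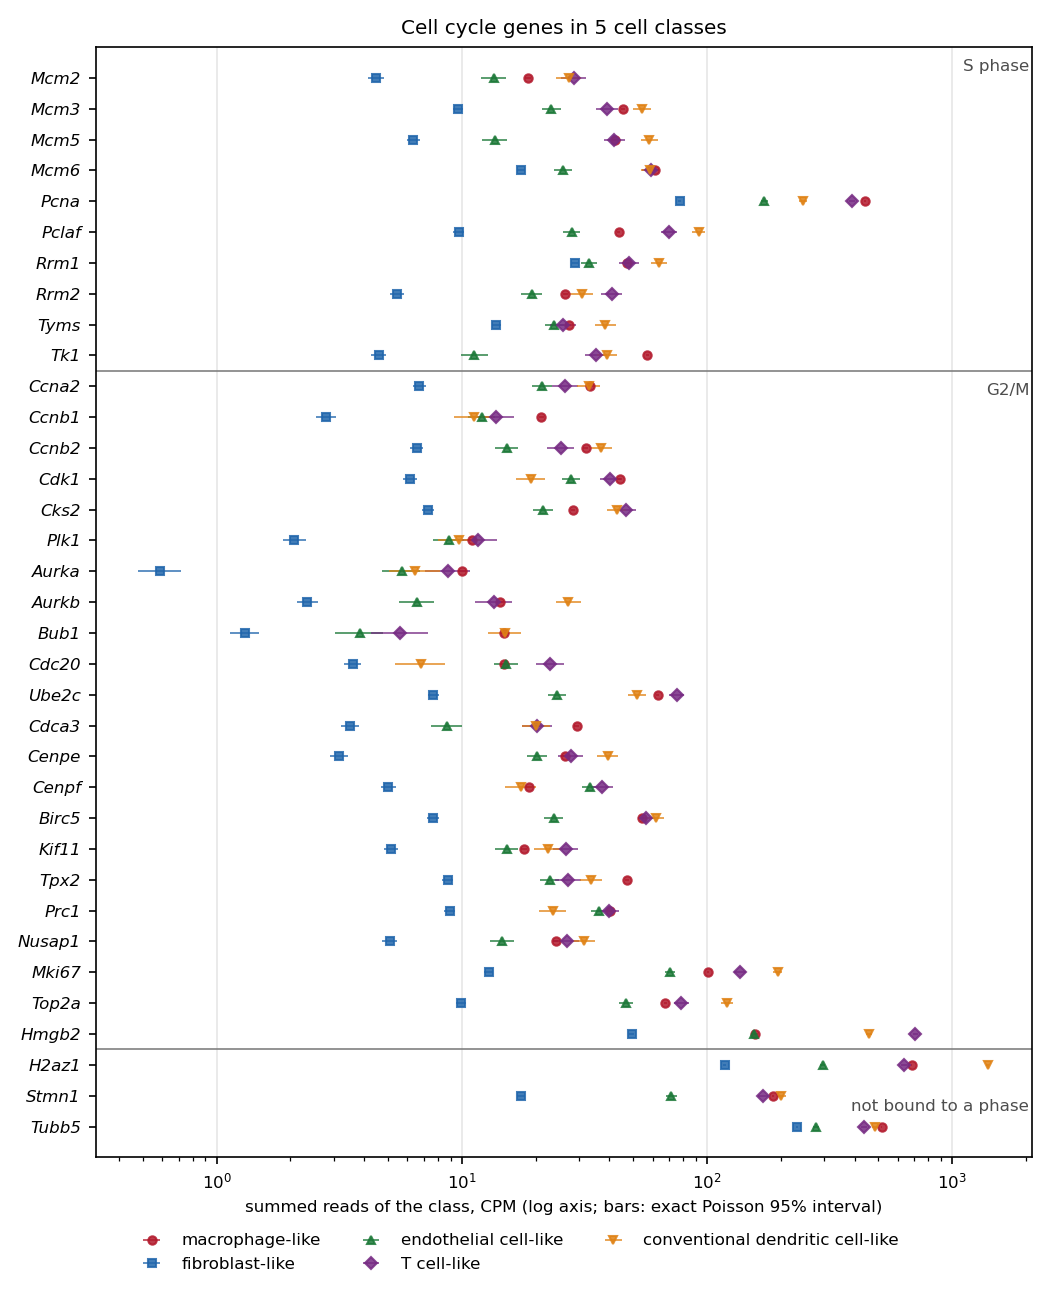
Summed reads of each member in 5 classes, in CPM on a log axis; bars are exact Poisson 95% intervals, mostly narrower than the symbols, and grey lines divide S phase, G2/M and other members. The fibroblast-like squares lie leftmost for all 35 genes, and for most genes the macrophage-like, T cell-like and dendritic cell-like symbols lie together.

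The replicative helicase, which unwinds DNA at the fork, is represented by Mcm2, Mcm3, Mcm5 and Mcm6. Mcm5 stood at 42.0 CPM (41.2 to 42.7) in macrophage-like cells, 41.9 in T cell-like, 58.1 in conventional dendritic cell-like, 13.6 in endothelial cell-like and 6.32 in fibroblast-like cells. Mcm6 stood at 61.3, 59.0, 58.5, 25.8 and 17.4 CPM in that order. Both were thus within 1.5-fold among the 3 immune classes, and in macrophage-like cells their ratios to the fibroblast-like class were 5.87 and 3.38. Mcm3 was at 45.4 against 9.67 CPM and Mcm2 at 18.6 against 4.47 CPM in macrophage-like and fibroblast-like cells, Mcm2 being under the 20 CPM limit. Each of the 4 was higher in macrophage-like than in fibroblast-like cells in 9 of 9 hashtag populations.

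Pcna, the sliding clamp that holds the polymerases on DNA, stood at 441 CPM in macrophage-like, 389.8 in T cell-like, 245.9 in conventional dendritic cell-like, 171 in endothelial cell-like and 77.3 in fibroblast-like cells. With zeros as deposited it was thus highest in the macrophage-like class (with zeros filled as described below, the ratio to the T cell-like class was 0.808), and above the dendritic class in 9 of 9 populations at a ratio of 1.79. Pclaf, which binds the clamp, had another order: 92.4 CPM in conventional dendritic cell-like, 70.2 in T cell-like, 43.6 in macrophage-like, 28.1 in endothelial cell-like and 9.71 in fibroblast-like cells. It was the only S phase member past the 2-fold limit below the dendritic class.

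Nucleotide supply genes differed in how far the classes lay apart. Tk1, which salvages thymidine, stood at 57.0 CPM in macrophage-like cells, 39.1 in conventional dendritic cell-like, 35.3 in T cell-like, 11.3 in endothelial cell-like and 4.58 in fibroblast-like cells. Its ratio of macrophage-like to fibroblast-like cells, 10.4, was the highest of the 35. Rrm1, the large subunit of ribonucleotide reductase, which makes deoxyribonucleotides, had the lowest ratio at 1.60, with 47.2 against 29.1 CPM. Tyms, which makes thymidylate, also missed the 2-fold limit, at 27.2 against 13.8 CPM. Rrm2, the small subunit that is made in S phase, stood at 26.4 against 5.44 CPM.

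The motor of mitotic entry is the kinase Cdk1 with its cyclins. Cdk1 stood at 44.1 CPM (43.3 to 44.8) in macrophage-like, 40.3 in T cell-like, 27.9 in endothelial cell-like, 19.1 in conventional dendritic cell-like and 6.14 in fibroblast-like cells. It was the only member past the 2-fold limit above the dendritic class, and was higher there in 9 of 9 populations. Ccna2 (33.2 against 6.70 CPM), the cyclin of S phase and G2, Ccnb1 (21.1 against 2.80) and Ccnb2 (31.98 against 6.55), the cyclins of mitosis, and Cks2 (28.4 against 7.26), a small subunit of the Cdk complex, were all higher in macrophage-like than in fibroblast-like cells.

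Among the mitotic kinases all 4 members were under 20 CPM in both of these classes. Plk1, which acts at spindle poles and kinetochores, stood at 11.0 against 2.07 CPM in macrophage-like and fibroblast-like cells. Aurka, the kinase of the spindle poles, stood at 9.98 against 0.59, Aurkb, the kinase of the chromosomal passenger complex, at 14.3 against 2.34, and Bub1, a spindle checkpoint kinase, at 14.9 against 1.30. They are low, and no call was made for them.

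The anaphase-promoting complex ends mitosis by marking proteins for destruction. Ube2c, its ubiquitin-conjugating enzyme, stood at 63.0 CPM in macrophage-like, 75.1 in T cell-like, 51.7 in conventional dendritic cell-like, 24.51 in endothelial cell-like and 7.66 in fibroblast-like cells. Cdca3, which triggers mitotic entry, stood at 29.4 against 3.49 CPM in macrophage-like and fibroblast-like cells, and Cdc20, which activates the complex, at 14.8 against 3.58. Of the kinetochore genes, Cenpe, a motor protein, stood at 26.4 against 3.16 CPM and Cenpf at 18.9 against 5.01. Birc5 (survivin, of the chromosomal passenger complex) stood at 54.5 against 7.65 CPM. In endothelial cell-like cells Cenpf was at 33.3 CPM and Cdc20 at 15.1, the only 2 members that were higher there than in macrophage-like cells.

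Spindle and cytokinesis genes lay close together. Tpx2, which nucleates spindle microtubules, stood at 47.3 against 8.75 CPM in macrophage-like and fibroblast-like cells. Prc1, which bundles the central spindle, stood at 40.2 against 8.94, Nusap1, a spindle-associated protein, at 24.2 against 5.08, and the motor Kif11, which separates the poles, at 17.9 against 5.13 CPM.

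Of the genes of mitotic chromosomes, Mki67, which coats them and is the usual proliferation marker, stood at 101 CPM (99.8 to 102) in macrophage-like, 136 in T cell-like, 194 in conventional dendritic cell-like, 70.6 in endothelial cell-like and 12.9 in fibroblast-like cells. Top2a, which untangles DNA, stood at 67.6, 78.4, 121, 46.7 and 9.91 CPM in the same order. With zeros as deposited both were thus highest in the dendritic class, though under the 2-fold limit, and with zeros filled in the T cell-like class (348 and 292 CPM). Hmgb2, a chromatin protein that many leukocytes hold outside division too, stood apart from the other G2/M members: 157 CPM in macrophage-like cells, 708 in T cell-like, 456 in conventional dendritic cell-like, 156 in endothelial cell-like and 49.3 in fibroblast-like cells. It was 2-fold lower in macrophage-like cells than in T cell-like and dendritic cell-like cells, and lower there in 9 of 9 populations.

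H2az1, a histone variant, stood at 683 CPM in macrophage-like, 636 in T cell-like, 1396 in conventional dendritic cell-like, 296 in endothelial cell-like and 118 in fibroblast-like cells, the dendritic class being highest in 9 of 9 populations against the macrophage-like class. Stmn1, which takes microtubules apart, stood at 186, 169, 201, 71.5 and 17.4 CPM, and its ratio of 10.1 to the fibroblast-like class came after that of Tk1. Tubb5, a tubulin chain, stood at 516, 438, 483, 278 and 233 CPM and was the most even of the 3.

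For the 9 members without low values the ratios rest in part on how zeros are read. With each 0 replaced by the gene's lowest value less 1 read, macrophage-like cells kept a ratio to fibroblast-like cells of 3.54 for H2az1, 2.79 for Pcna, 1.81 for Tubb5, 1.77 for Stmn1 and 1.37 for Mki67. The ratio was then 1.10 for Top2a and 1.09 for Ube2c, and it turned below 1 for Cdk1 (0.910) and Prc1 (0.862). Of the 35 members 18 were then 2-fold higher. Zeros were filled for the members only, so no share over all genes stands beside this count. In the less deeply read classes the same replacement weighs more: against endothelial cell-like cells the ratio of Ube2c turned to 0.425 and that of Stmn1 to 0.657, and against conventional dendritic cell-like cells that of Cdk1 turned to 0.586. Against T cell-like cells the ratios of all 9 were then below 1, from 0.345 for Prc1 to 0.872 for H2az1. The other 26 members, whose values go down to 1 read, are not touched by this.

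Promoters were read for 31 of the 35 members from RefSeq's table for GRCm38.p6, as the 250 bases before the annotated start. The searched motifs, on both strands, were TTTGAA (the CHR element), CCAAT, and as E2F sites TTTCCCGC, TTTCGCGC, TTTGCCGC and TTTGGCGC. CHR letters stood in 8 of 19 G2/M promoters (42.1%) and in 1 of 10 S phase promoters, against 13.4% of 16154 promoters of genes in the table. CCAAT stood in 17 of 19 G2/M promoters (89.5%) and in 8 of 10 S phase promoters (80%), against 35.7% of all. Both motifs together stood in 8 of 19 G2/M promoters, against 5.06% of all, namely those of Ccnb2, Cdk1, Cdc20, Ube2c, Kif11, Mki67, Top2a and Hmgb2. An E2F site stood in 2 of 10 S phase promoters (Mcm5 and Mcm6) and in that of Cdk1, against 2.68% of all. These are matches of letters, not measured sites.

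The promoters below, 5′ to 3′ on the gene's own strand, are those of 3 G2/M members with CHR and CCAAT letters and of the 2 S phase members with E2F letters, and capitals mark the motifs on either strand (CCAAT reads ATTGG on the other strand, TTTGAA reads TTCAAA). The genes lie at chr10:69335146-69352938 (minus strand) for Cdk1, chr2:164769898-164778822 (plus) for Ube2c, chr11:98992943-99024189 (minus) for Top2a, chr8:75109569-75128439 (plus) for Mcm5 and chr1:128331590-128359664 (minus) for Mcm6 in GENCODE vM21. The printed windows are chr10:69352913-69353162, chr2:164769679-164769928, chr11:99024190-99024439, chr8:75109259-75109508 and chr1:128359706-128359955.
Cdk1: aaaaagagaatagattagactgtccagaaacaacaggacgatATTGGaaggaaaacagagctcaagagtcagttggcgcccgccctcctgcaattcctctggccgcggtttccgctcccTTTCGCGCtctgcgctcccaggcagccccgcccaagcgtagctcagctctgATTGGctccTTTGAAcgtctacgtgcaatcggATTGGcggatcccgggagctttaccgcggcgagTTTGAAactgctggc
Ube2c: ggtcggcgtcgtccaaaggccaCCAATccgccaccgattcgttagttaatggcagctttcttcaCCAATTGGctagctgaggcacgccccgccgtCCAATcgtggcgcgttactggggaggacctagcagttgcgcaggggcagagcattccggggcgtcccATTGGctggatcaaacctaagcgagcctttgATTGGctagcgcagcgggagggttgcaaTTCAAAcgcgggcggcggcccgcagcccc
Top2a: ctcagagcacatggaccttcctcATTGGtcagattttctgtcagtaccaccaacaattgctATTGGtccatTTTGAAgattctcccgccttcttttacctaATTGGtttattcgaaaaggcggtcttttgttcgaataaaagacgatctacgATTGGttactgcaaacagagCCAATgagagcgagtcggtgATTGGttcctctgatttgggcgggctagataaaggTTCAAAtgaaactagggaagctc
Mcm5: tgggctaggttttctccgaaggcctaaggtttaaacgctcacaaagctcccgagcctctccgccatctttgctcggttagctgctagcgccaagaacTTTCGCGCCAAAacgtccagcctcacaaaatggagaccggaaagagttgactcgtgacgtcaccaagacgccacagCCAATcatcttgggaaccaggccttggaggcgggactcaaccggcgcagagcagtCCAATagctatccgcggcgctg
Mcm6: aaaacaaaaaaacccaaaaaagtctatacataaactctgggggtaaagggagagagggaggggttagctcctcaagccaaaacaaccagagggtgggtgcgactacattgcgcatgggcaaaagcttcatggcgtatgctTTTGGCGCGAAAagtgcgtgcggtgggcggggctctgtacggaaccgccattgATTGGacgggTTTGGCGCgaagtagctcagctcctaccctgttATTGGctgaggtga
Distances are counted from the RefSeq start, which can differ from that of GENCODE. The Cdk1 and Ube2c windows reach into the genes as placed by GENCODE, and the Mcm5 and Mcm6 windows stop short of theirs. In Cdk1 the CHR letters end 66 and 10 bases before the start, and CCAAT letters end 204, 76 and 44 bases before it. Ube2c has 6 CCAAT matches and 1 CHR match, and Top2a has 6 and 2. In Mcm5 and Mcm6 a pair of E2F matches on opposite strands overlap, and Mcm6 has another E2F match that ends 40 bases before the start.

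Within the macrophage-like class the members appeared in the same cells. S phase members were paired with one another at a median Pearson r of 0.345 (0.209 to 0.510 over 45 pairs) on log2(CPM+1) over 2981 cells, and G2/M members at 0.511 (0.199 to 0.733 over 231 pairs). Pairs of 1 S phase and 1 G2/M member had a median of 0.299 over 220 pairs. Prc1 and Nusap1 were closest (0.733), and Hmgb2 was the loosest G2/M member, with a mean r of 0.256 to the others. These values describe cells of 1 library whose depth differs, and deeper cells show more of every gene. The genes outside the 35 whose level was most like the G2/M mean were Ckap2l (r 0.747), Hmmr (0.739), Pbk (0.731), Pimreg (0.721) and Ncapg (0.715), and among those most like the S phase mean were Uhrf1 (0.684), Pbk (0.598) and Lig1 (0.587).

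The thinned reads divided the macrophage-like cells by phase. Both sets of genes were read in 229 cells (7.68%), S phase genes alone in 200 (6.71%), G2/M genes alone in 142 (4.76%) and neither in 2410 (80.8%). The division is a range and not a set of types: 229 cells had 2 G2/M members and 77 had 3, next to the limit, while 143 had 10 or more. Of the 1007 cells with a single G2/M member, 631 had Hmgb2 alone. Without Hmgb2 among the members the share with G2/M genes was 10.9%.

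In cells with S phase genes alone Mcm6 stood at 202 CPM and Pcna at 789.7, against 42.1 and 279 in cells with G2/M genes alone and 23.5 and 298 in cells with neither. Mki67 stood at 21.7 CPM with S phase genes alone, 489 with G2/M genes alone, 558 with both and 6.92 with neither. Ube2c was highest with G2/M genes alone (406 CPM, against 319 with both), as was Ccnb2 (235 against 133), while Ccna2 (133 against 200.1) and Cdk1 (137 against 259.5) were highest with both. Rrm2 was high only in cells with both sets, at 185 CPM against 14.0 with S phase genes alone and 13.9 with G2/M genes alone. The S phase and G2/M members define these cells, so their levels describe the cells and test nothing. H2az1, which was assigned to neither phase, stood at 641 CPM with S phase genes alone, 1446 with G2/M genes alone and 1721 with both. Stmn1 stood at 215, 529 and 766 CPM and Tubb5 at 599, 821 and 1344 CPM in that order.

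Macrophage-like cells were clustered again without the members, the other cell cycle genes and histone genes. Subcluster 9, with 209 cells and a median of 158849 reads, held G2/M genes in 81.8% (75.9 to 86.8%) and S phase genes in 78.0% of its cells, and 46.1% of all macrophage-like cells with G2/M genes. All 35 members were 2-fold higher there than in the other macrophage-like cells, where 6.32% of genes were. Members low in the other cells reached 20 CPM through this subcluster, and genes that vary with the members stayed in the clustering. The count thus describes the subcluster and tests nothing. Mki67 stood at 512 against 40.3 CPM, Top2a at 356 against 24.9, Mcm5 at 146 against 26.6 and Hmgb2 at 396 against 122. Its leading genes, ranked over all genes, held left-out ones such as Pbk. Pimreg and Cdca2, which were not on the left-out lists, were also among them.

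**Figure D3:**
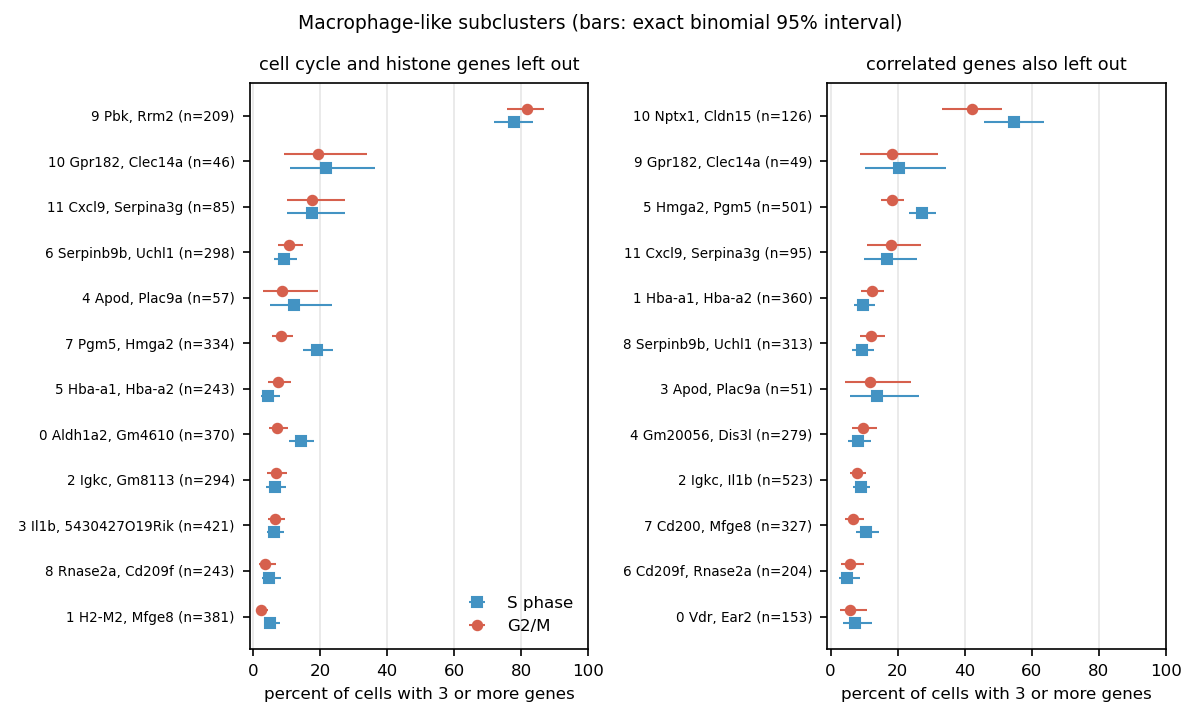
Percent of cells with at least 3 S phase (blue squares) or G2/M genes (red circles) in macrophage-like subclusters, each named by 2 leading genes, with exact binomial 95% intervals; left without cell cycle and histone genes, right also without genes correlated with the members. The highest G2/M share is 81.8% on the left and 42.1% on the right.

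The other subclusters lay between 2.36% and 19.6%. Lowest was subcluster 1 (381 cells, led by H2-M2, Mfge8 and Htr2b) at 2.36% (1.09 to 4.44%) for G2/M and 5.25% for S phase genes, with Mki67 at 6.95 CPM. Subcluster 8 (243 cells, led by Rnase2a, Cd209f and Lyve1, genes of resident macrophages) was at 3.70% and 4.94%. Subcluster 7 (334 cells, led by Pgm5 and Hmga2) stood out by its S phase share of 19.2% (15.1 to 23.8%) beside a G2/M share of 8.38%, and subcluster 0 (370 cells, led by Aldh1a2, Gm4610 and Ear2) had 14.3% and 7.30%. Subcluster 11 (85 cells, led by Cxcl9, an interferon-induced chemokine) was at 17.6% for both. Subclusters 4 (57 cells, 8.77%) and 10 (46 cells, 19.6%) carried fibroblast and endothelial cell markers, and without them 25 members were still 2-fold higher than in fibroblast-like cells and 10 than in endothelial cell-like cells.

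When 2017 genes, including all those correlated with the members at r above 0.1, were left out, the dividing cells were spread over more subclusters. The highest share was then 42.1% (33.3 to 51.2%) in subcluster 10 of that clustering (126 cells, median 165228 reads, led by Nptx1, Cldn15 and Ccne2), where 30 of 35 members were 2-fold higher against 3.51% of genes. Here too, members low in the other cells reached 20 CPM through the subcluster itself. Another 24.8% of the cells with G2/M genes lay in its subcluster 5 (501 cells, led by Hmga2 and Pgm5), with 18.4% for G2/M and 27.3% for S phase genes. The interferon subcluster was at 17.9%, the one led by Serpinb9b and Uchl1 at 12.1%, those led by Cd200 and Mfge8 at 6.73% and by Vdr and Ear2 at 5.88%, and the Cd209f and Rnase2a subcluster at 5.88%. Cells with G2/M genes were thus present in every macrophage-like subcluster of either clustering.

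Among the hashtag populations the macrophage-like share with G2/M genes ran from 4.17% to 16.6%, with a median of 10.4%. It was 14.3% in A0301 (35 cells), 6.67% in A0302 (30), 4.17% in A0303 (48), 6.86% in A0304, 10.4% in A0305 (357), 9.53% in A0307 (430), 16.6% in A0308 (519), 13.9% in A0309 (677) and 14.3% in A0310 (579). The S phase share was 14.3%, 3.33%, 8.33%, 7.19%, 11.8%, 9.77%, 19.8%, 18.5% and 14.7% in that order. A0308 had the highest and A0304 the lowest share among the populations with over 300 macrophage-like cells. Median reads of these cells ran from 20757 in A0301 to 96023 in A0310. The populations also differed in their subclusters. In the clustering without correlated genes, the Cd209f and Rnase2a subcluster was the most frequent in A0303 (45.8%), A0302 (43.3%) and A0301 (28.6%), and the Cd200 and Mfge8 subcluster in A0304 (25.5%), A0307 (23.7%) and A0305 (21.01%). The Hmga2 and Pgm5 subcluster led in A0309 (37.7%) and A0308 (25.8%), and the Serpinb9b and Uchl1 subcluster in A0310 (47.0%). The part of depth and of this makeup in the shares was not tested.

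**Figure D4:**
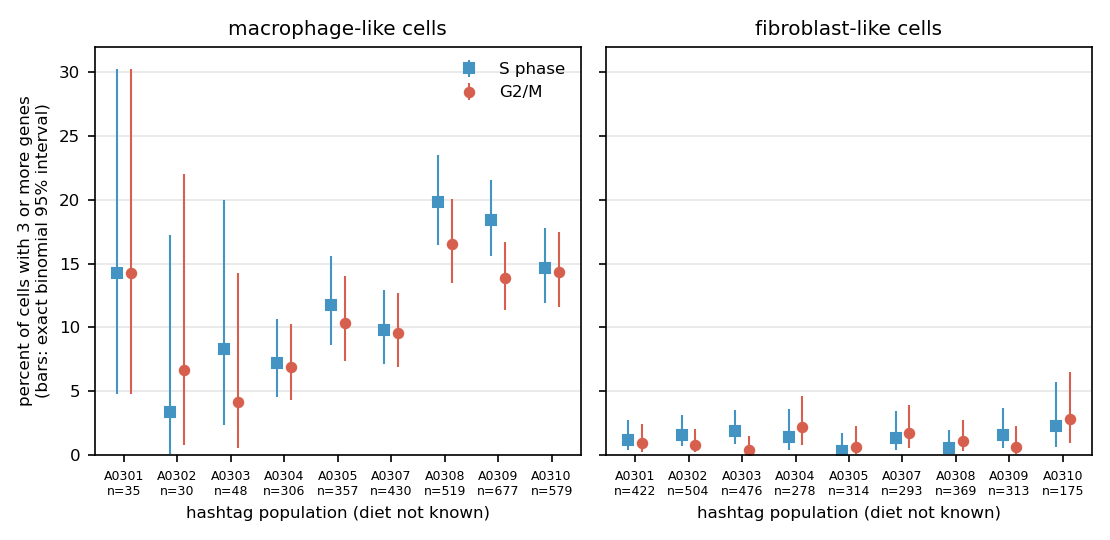
Percent of macrophage-like (left) and fibroblast-like cells (right) with at least 3 S phase (blue squares) or G2/M genes (red circles) in each of 9 hashtag populations, with exact binomial 95% intervals and the number of cells. Macrophage-like G2/M shares run from 4.17% to 16.6%, fibroblast-like ones from 0.420% to 2.86%.

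In fibroblast-like cells the G2/M share stayed between 0.420% in A0303 and 2.86% in A0310, with a median of 0.948%, and in endothelial cell-like cells between 0% and 4.00%. T cell-like shares ran from 0% of 36 cells in A0303 to 16.9% of 118 cells in A0308, with a median of 4.05%. A0308 held 20 of the 40 T cell-like cells with G2/M genes, and the class stood at 5.88% without it. Conventional dendritic cell-like shares ran from 0% of 23 cells in A0301 to 20.3% of 64 cells in A0305, with a median of 14.6%.

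The levels of single members did not keep the order of the shares. Over the 9 populations Mki67 in macrophage-like cells ran from 41.6 CPM in A0304 to 173 in A0301, with a median of 106. Top2a ran from 27.1 in A0304 to 163 in A0301 (median 58.0), Mcm5 from 22.5 in A0304 to 81.1 in A0301 (median 39.5) and Pcna from 333 in A0304 to 594 in A0301 (median 413). Ccnb1 and Cdc20 were listed at 0 in the 30 cells of A0302. A0301 was highest for 24 of the 35 members on 35 macrophage-like cells, A0308 for 6, and the lowest values were in A0302 (12 members), A0303 (12) and A0304 (11). The same counts over all genes were not made, so it cannot be told whether these are particular to the members. In A0301 the reads came from few cells: 1 cell held 50.4% of its Mki67 reads and 93.2% of its Ccnb1 reads. H2az1 (463 to 813 CPM), Pcna and Hmgb2 (120.0 to 223) varied least, each under 2-fold from the lowest to the highest population.

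Beyond the members, other division genes were also higher in cells with G2/M genes. The 371 macrophage-like cells with at least 3 G2/M members were set against the 548 with no read of any S phase or G2/M member after thinning. Of 6737 genes at 20 CPM, 7.57% were 2-fold higher and 1.51% lower, and the median ratio over all was 1.08. The former cells had a median of 112740 reads and the latter 38747.5, and the part of depth in these ratios was not tested beyond the values given here. Of 120 further cell cycle genes in 8 lists, 106 reached 20 CPM, 94 were 2-fold higher and 1 lower. The cells were chosen by reads of G2/M members, and genes low in the other cells reached 20 CPM through the chosen cells. The counts of the division lists below thus describe the chosen cells and test nothing.

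All 22 genes of origin licensing and the replisome at 20 CPM were higher, with a median ratio of 8.23, from Uhrf1 (46.7), which keeps DNA methylation through replication, and Asf1b (29.4), a histone chaperone, to Cdt1 (3.29), which loads the helicase. All 18 mitotic kinesin, spindle and cytokinesis genes at 20 CPM, of 19 listed, were higher, with a median of 27.8. The kinesin Kif20a (71.8) and the spindle protein Aspm (47.9) led them, and Spag5 was lowest (9.45). All 13 kinetochore and centromere genes were higher, with a median of 15.8, from Nuf2 (32.1) and Spc25 (24.6), both of the complex that grips microtubules, to Cenpw (4.52). All 18 G2/M regulators at 20 CPM, of 19 listed, were higher as well, with a median of 9.11. They ran from Pbk (69.8) and Nek2 (36.7), both mitotic kinases, to the tubulin Tuba1c (2.51). Of 13 checkpoint, cohesin and condensin genes 12 were higher, led by the condensin subunits Ncapg (48.9) and Ncaph (20.2), while Pttg1, securin, stood at 1.00.

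The genes that lead into the cycle differed less. Of 7 G1 cyclins and kinases 5 were higher, the E cyclins Ccne2 (16.9) and Ccne1 (7.90) most, and cyclin D3 (Ccnd3) stood at 1.00. Of 7 genes of E2F, pocket proteins and Myc 4 were higher, with E2f8 at 19.7, Rbl1 at 4.51 and Rbl2 lowest at 0.951. Among 8 Cdk inhibitors and brakes Cdkn2c (6.61) and Cdkn2d (5.22) were higher, and the antiproliferative gene Btg2 (0.487) was lower. None of 12 macrophage growth and self-renewal regulators passed 2-fold in either direction. Their median was 0.737, and they ran from Spp1 (1.203) and Il6ra (0.851) to Ccr2 (0.583).

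**Figure D5:**
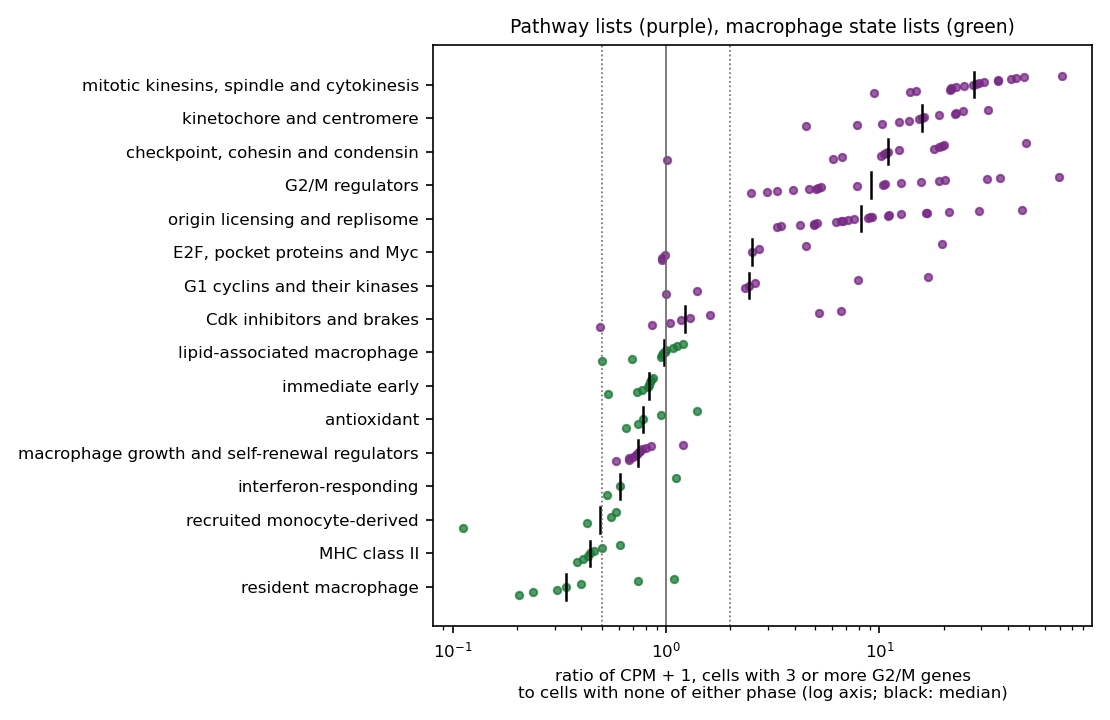
Ratio of CPM + 1 between macrophage-like cells with at least 3 G2/M genes and those with no S phase or G2/M gene, 1 point a gene at 20 CPM or more, on a log axis; black bars are list medians and dotted lines 2-fold limits. Division lists lie to the right (median 27.8 for spindle genes), MHC class II and resident macrophage genes to the left (0.437 and 0.337).

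Macrophage state genes were level or lower, and so were macrophage markers and the mitochondrial share. The 10 macrophage class markers summed to a median of 11885 CPM a cell in cells with G2/M genes and 19733 in cells with none, with medians of 3.99% and 5.27% mitochondrial reads and 5386 and 2728 genes. The part of these differences in the ratios below was not tested. Of 7 MHC class II genes 6 were 2-fold lower: Cd74 (0.437), H2-Aa (0.429), H2-Ab1 (0.408), H2-Eb1 (0.383), H2-DMa (0.500 after rounding, just inside the limit) and their activator Ciita (0.459), while H2-DMb1 stood at 0.609. Each was lower in 6 of 6 populations with 10 or more cells of both kinds. Of 7 resident macrophage genes 5 were lower, Cd209f (0.205), F13a1 (0.237), Lyve1 (0.306), Cd163 (0.337) and Cbr2 (0.3996), while Folr2 stood at 1.09, Mrc1 at 0.738 and Timd4 was under 20 CPM. Of 4 recruited monocyte-derived genes at 20 CPM, Retnla (0.112) and Plbd1 (0.424) were lower, and Fn1 (0.553) and Ccr2 were not. These counts moved with depth: among cells with 75000 or more reads (259 against 143 cells, medians 153081 and 119759) only 1 MHC class II gene and 1 resident gene were 2-fold lower, whereas 94 cell cycle genes were still higher.

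The lipid-associated genes, which mark macrophages that take up fat from dying cells, were mostly level. Of the 10, Spp1 (1.203), Lgals3 (1.12), Lpl (1.08), Cd9 (0.994), Fabp5 (0.982), Cd36 (0.962), Trem2 (0.957), Ctsl (0.943) and Gpnmb (0.689) were within 2-fold, and Mmp12 (0.499) was lower, though in 4 of 6 populations. None of 5 antioxidant genes (0.649 for Prdx1 to 1.39 for Txnrd1), none of 8 immediate early genes (0.531 for Hspa1a to 0.870 for Zfp36) and none of 3 interferon-responding genes at 20 CPM (Gbp2 1.11, Cxcl9 0.609 and Cxcl10 0.530) passed 2-fold.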

How the data were processed

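Single cells of 1 pooled sample were read as 2 libraries of TAS-Seq on BD Rhapsody. The authors deposited a table of counts per gene and cell; per the submitters' processing notes cutadapt 2.10, Bowtie2 2.4.2, R 3.6.3 and GRCm38 were used, and the role of each tool is not stated there. The counts are treated as reads, since no step that collapses them to molecules is stated. In the table, 12 columns that match no hashtag population were not used.

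Cells with under 200 genes or over 25% mitochondrial reads (1253 cells), hashtag doublets (254) and Scrublet doublets (236) were removed. Cells were clustered with scanpy 1.11.5 (2000 variable genes, 30 principal components, Leiden resolution 1) without cell cycle genes and, unlike the plan, without histone genes. Levels are summed counts per 1000000 (CPM) with exact Poisson 95% intervals, and shares have exact binomial ones. With 1 sample no test was possible, so ratios of CPM + 1 past 2-fold at 20 CPM are described. Thinning and calls were tested on simulated data, which had no gap of missing low values. All members are named, other genes by list or by their largest ratios in all populations; some genes are not reported here. The members and lists were chosen with earlier results of these data known. Alternatives changed the pseudocount, fold, limits, clustering and populations; leaving out Hmgb2, cells with markers of another class, correlated genes, small populations or shallow cells, and keeping histone genes, were chosen after seeing the data. Python 3.11.15, numpy 2.4.6, pandas 2.3.3 and scipy 1.17.1 were used.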

Additional observations from a re-analysis of the deposited data

Results flagged for a closer look

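In 6 of 59 values tested over the 9 hashtag populations, the macrophage-like cells of A0301 lay far above the other populations; chance gives this in about 1 of 20 such groups. The CPM there was 117 for Rrm1 (next highest 65.2), 68.9 for Tyms (34.4), 29.6 for Aurka (14.1), 113 for Cenpe (39.0), 57.8 for Kif11 (26.3) and 197 for Prc1 (57.2). A0301 had 35 macrophage-like cells, and the 6 values come from these same cells, so they are not separate events. A single cell gave 36.1% of the Rrm1 reads, 38.7% for Tyms, 67.2% for Aurka, 59.7% for Cenpe, 71.4% for Kif11 and 65.9% for Prc1.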

How the results depend on the processing

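Of 267 alternative values, 215 stayed close to those reported and 52 moved. A change of direction was not scored apart from other moves. The counts of members between classes that follow have no share over all genes beside them, since none was computed at these settings. They show how far each count moves and not whether it is particular to the members. The count against fibroblast-like cells stayed within 1.5 times under each alternative run, from 18 to 33. Members higher than in endothelial cell-like cells numbered 7 with zeros filled, 7 with CPM + 10, 18 at 1.5-fold, 2 at 3-fold, and 7 (without A0309) to 13 when 1 population was left out. Members lower than in T cell-like cells numbered 6 with zeros filled, 7 at 1.5-fold, 2 at Leiden resolution 2, 2 at 10% mitochondrial reads, 3 without cells holding macrophage genes, and 1 to 2 leaving out a population. Against conventional dendritic cell-like cells 1 was lower by per-cell CPM, 5 with zeros filled, 6 at 1.5-fold, 0 at 3-fold, and 1 (without A0305) to 6 (without A0308) leaving out a population.

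With at least 2 members in place of 3, G2/M shares were 20.1% in macrophage-like, 2.70% in fibroblast-like, 22.7% in T cell-like and 23.3% in conventional dendritic cell-like cells, and S phase shares 28.2% and 5.92% in the first 2. With 5 they were 8.79%, 0.509%, 4.15% and 9.06%, and 6.00% and 0.350%. Unthinned, the macrophage-like shares were 18.2% (G2/M) and 21% (S phase), the fibroblast-like S phase share 2.1% and the T cell-like G2/M share 6.11%. Without Hmgb2 the G2/M shares were 10.9% in macrophage-like and 6.11% in T cell-like cells. With cell cycle genes kept in the clustering the fibroblast-like share was 0.607%. The T cell-like share ran from 5.88% (without A0308) to 9.64% leaving out a population.

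The highest subcluster share was 94.1% with cell cycle genes kept, 93.9% at resolution 2 and 42.1% without correlated genes, and the lowest 0% at resolution 2 and 5.88% without correlated genes. Over populations the median was 20% with 2 members, and the highest 26.0% with 2 and 12.3% with 5. Genes lower in cells with G2/M genes numbered 204 by per-cell CPM and 266 thinned, and with 75000 or more reads 1 MHC class II and 1 resident gene. The cause of each move was not tested. No paired analysis was possible because the labels number no replicates and no test was run; classes were compared within each population by direction only. Depth limits shares in shallow classes, and no diet can be told from a hashtag.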

Other observations

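Outside the fixed lists, genes that were 2-fold higher in macrophage-like cells with G2/M genes than in those with no member, in 6 of 6 populations, included Pimreg (53.4), Clspn (34.95), a replication checkpoint mediator, and Cenph (28.3), a kinetochore gene. These ratios come from cells chosen by the members. The hemoglobin genes Hbb-bs, Hba-a1, Hba-a2 and Hbb-bt summed to 0 CPM in the former cells and to between 157 and 419.8 CPM in the latter.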
